A study of Anguilla anguilla with 3 samples.

Results

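Ion pumps, chloride channels, TRP channels and TMC proteins were followed in ovary transcriptomes of the European eel (Anguilla anguilla). The set holds 126 of the 45974 predicted genes of the deposited table, namely every gene whose description contains potassium-transporting ATPase, calcium-transporting ATPase, chloride channel, transient receptor potential or transmembrane channel-like. The libraries came from 1 yellow eel, the growing stage, 1 prepubertal silver eel, the stage that precedes the seaward migration, and 1 matured eel sampled after spawning. The labels name no hormone or other treatment for any eel, and tissue from several parts of the gonad was pooled within each animal. The yellow and the matured eel came from Lake Veerse in spring, and the silver eel from Lake Grevelingen in December, so stage, animal and, for the silver eel, lake and season cannot be told apart. With 1 eel per stage there is no spread between animals, no test of a stage was possible, and each value describes 1 library.

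The sodium pump is a P-type ATPase that exports sodium and imports potassium, and it consists of a catalytic alpha subunit, a beta subunit needed for delivery to the membrane and, in many tissues, a small FXYD protein that modulates it. Plasma membrane calcium pumps export calcium, CLC proteins carry chloride, and TRP channels admit cations in response to lipids, calcium, heat or other signals. In marine and migratory teleosts the ovary is a site of strong ion movement, since oocytes take up ions and water before ovulation.

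Library totals were 27811764 (yellow), 41426808 (silver) and 30137882 (matured) reads, and the members took 0.191%, 0.197% and 0.157% of them. Levels are counts scaled by TMM to a common library size (CPM), and levels of different genes are compared only after division by length (CPM per kb). A fold is the ratio of the scaled counts of 2 libraries, and the range behind it is a 95% interval of counting error alone. With 1 CPM added to both libraries, a log2 ratio of 2 or more in size (4-fold) made a call, provided that one of the libraries held 10 CPM or more. Ovary labels were checked against marker genes: the 8 oocyte markers summed to 53753, 39151 and 37360 CPM in the yellow, silver and matured library. Of that sum zp3 held 33140, 22518 and 24927 CPM and zp2 15100, 11352 and 10033 CPM. The markers zp2, zp3, zp4 and zar1 were highest in the yellow library, and gdf9, bmp15, mos and nano3 in the silver library. Markers of other cell types differed between the libraries. The 8 granulosa and theca markers summed to 25.9, 104 and 557 CPM. Of that sum cp17a alone held 5.30, 47.4 and 423 CPM, and cp19a was highest in the silver library. The 7 immune markers found summed to 6.43, 14.3 and 139 CPM, and the 8 smooth muscle markers to 1006, 751 and 692 CPM. Of the smooth muscle sum mylk alone held 946, 695 and 392 CPM, and most other markers of that list were highest in the matured library. The epithelial markers summed to 834, 1091 and 1045 CPM, of which cadh1 alone held 469, 827 and 305 CPM, while k1c18 and k2c8 were highest in the matured library. The 3 erythrocyte markers found summed to 4.28, 15.5 and 12.5 CPM. The nerve and glia markers summed to 5.86, 6.58 and 8.18 CPM and the skeletal muscle markers to 16.6, 10.1 and 12.7 CPM, with myh1, a skeletal muscle myosin, at 0 in every library. Each found marker of the other lists had reads in all 3 libraries. The part of these cell types in the values below was not tested, and in whole ovary tissue fewer cells of a type cannot be told apart from less RNA per cell.

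Most members had low levels in these ovaries, as did most genes of the table. Of the 126 members, 14 had no reads in any library, 112 had reads, and 28 reached 10 CPM in at least 1 library. The yellow library detected 90 members, the silver library 101 and the matured library 96, beside 36226, 37329 and 36622 of all 45974 genes. In the matured or the yellow library, 28 of the 126 members reached 10 CPM, beside 12553 of the 45974 genes. The table splits some genes: 48 members are shorter than 500 bases, and the 125 members with a name carry only 44 distinct names, so rows of one name may be copies of a gene or fragments of it. By family, 7 of 15 sodium pump alpha rows, 3 of 7 beta rows, 1 of 21 plasma membrane calcium pump rows, 1 of 6 CLC rows, both CLIC-like rows, 3 of 28 TRPC rows, 4 of 20 TRPM rows, 1 of 7 TRPV rows and 4 of 10 TMC rows reached 10 CPM. The single sodium pump gamma row and the single TRPC4-associated row also did, and neither the single TRPA row nor any row of the gastric proton pump or of the sodium pump beta-1-interacting proteins did.

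**Figure D1:**
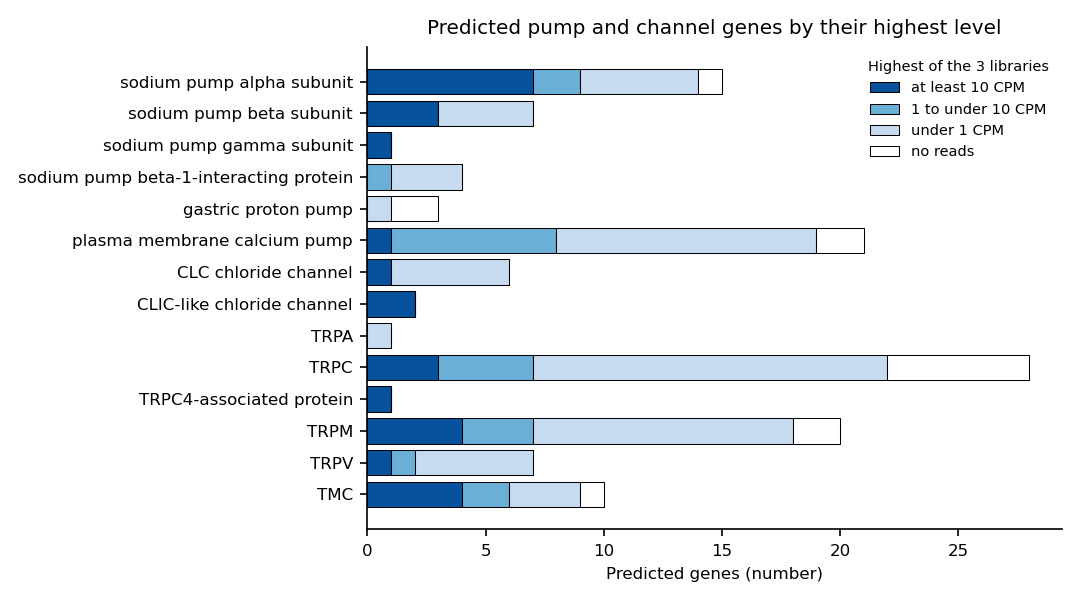
Number of predicted genes in each pump or channel family (horizontal bars), divided by the level the gene reached in its highest library. Families with many rows, such as TRPC with 28 and plasma membrane calcium pumps with 21, consist mostly of rows under 10 CPM.

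Few members were called 4-fold apart between stages. They were the TMC genes tmc7 and tmc3, the at1a1 rows g17727 and g43721, and trpv6. Rows under 10 CPM could not be called, and some of them differed by more than 4-fold, as given below. Between silver and yellow, 1 of the 26 members with 10 CPM was called higher, the TMC gene tmc7, where 3.69% of all 12462 such genes were called higher. In the same comparison 1 member was called lower, the calcium channel trpv6, against 1.43% of all such genes. Between matured and silver, 1 of 25 members was called higher, the TMC gene tmc3, beside 2.23% of 12573 genes, and 1 was called lower, the sodium pump alpha row at1a1 g17727, beside 4.61%. Between matured and yellow, 1 of 28 members was called higher, again tmc3, beside 3.39% of 12553 genes, and 3 were called lower, trpv6 and the at1a1 rows g17727 and g43721, beside 2.59%. As shares, the members called were 3.85% higher and 3.85% lower between silver and yellow, 4% and 4% between matured and silver, and 3.57% and 10.7% between matured and yellow. With counts of 1 to 3, these shares do not set the members apart from the table, and the 10.7% rests on 3 rows of which 2 carry the name at1a1.

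At a 2-fold threshold more rows were counted. Shares are of the members with 10 CPM, beside those of all genes with 10 CPM. Between silver and yellow 4 members were higher (15.4% beside 18.6%), namely tmc7, trpm6, clcc1 g37299 and at1a1 g24047. In that comparison 5 were lower (19.2% beside 11.1%), namely trpv6, trpm5, tmc6 g12091, trpc1 g6171 and at1a1 g30151. Between matured and silver 3 were higher (12% beside 9.64%), namely tmc3, atng and at233. There 6 were lower (24% beside 21.8%), namely at1a1 g17727, g17728 and g20531, at1b1, clcc1 g37299 and tmc6 g23741. Between matured and yellow 5 were higher (17.9% beside 11.4%), namely tmc3, tmc7, trpm6, atng and at233. There 8 were lower (28.6% beside 15.4%), namely trpv6, trpm5, tmc6 g23741 and at1a1 g17727, g17728, g20531, g30151 and g43721. So in the last comparison 5 of the 8 lower rows are named for the sodium pump alpha-1 subunit. They may be copies or fragments of a gene, so the 28.6% is no count of separate genes. Summed over all reads, the at1a1 rows were 2.14-fold lower in the matured than the yellow library.

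**Figure D2:**
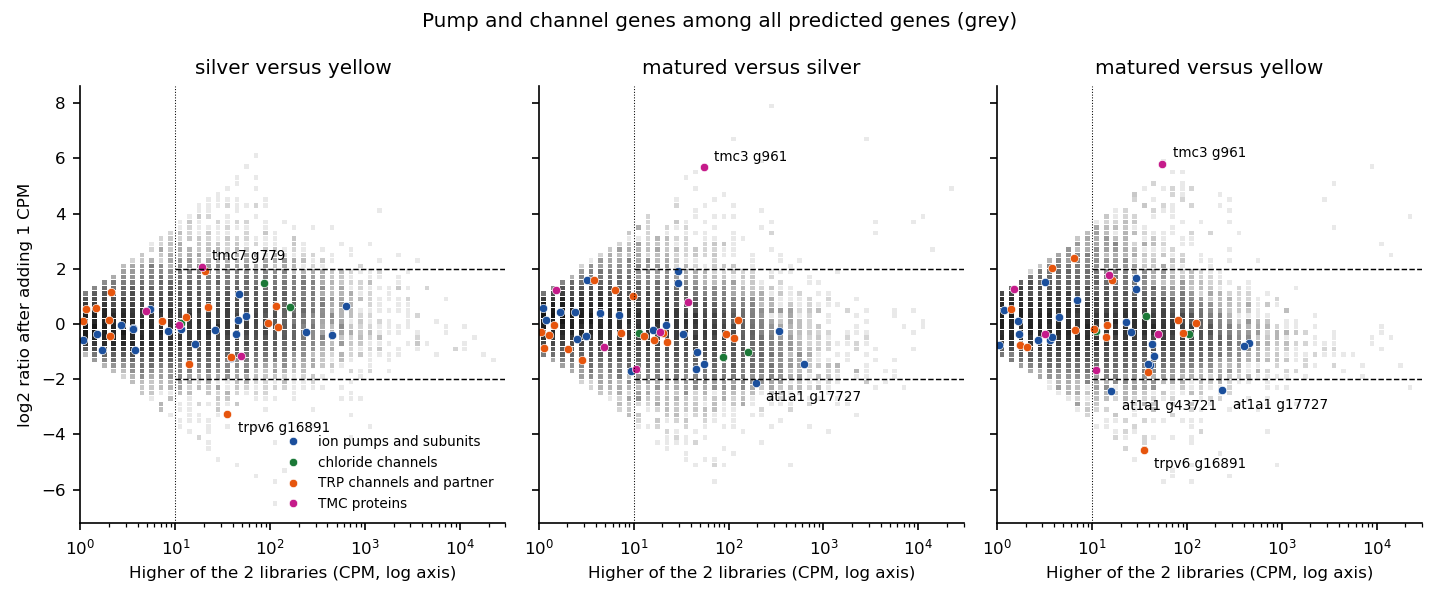
Log2 ratio after adding 1 CPM (vertical axis) against the level in the higher of the 2 libraries (CPM, log axis) for each comparison; grey squares show the density of all predicted genes and coloured points the members with at least 1 CPM there. Dashed lines mark 4-fold and the dotted line 10 CPM; the labelled points are the members called, with trpv6 lowest and tmc3 highest.

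Over the 43 members with at least 1 CPM on average, the median log2 ratio was -0.05 between silver and yellow, beside 0.01 over the 24571 genes of that level. Between matured and silver it was -0.32 beside -0.03, with 14 of 43 members (32.6%) above 0 beside 48.7% of those genes. Between matured and yellow it was -0.31 beside -0.05, with 16 of 43 (37.2%) above 0 beside 47.6%. Of the 43 members, 7 carry the name at1a1 and may be copies or fragments of a gene. With library totals alone in place of TMM, the median of all genes moved to 0.25 and 0.18 in the latter comparisons and that of the members to -0.02 and -0.05, so the median of the members lay below that of all genes under either scaling, and near 0 with library totals. These medians describe the libraries and are no test. The comparisons matured versus silver and matured versus yellow share the matured library.

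The sodium pump supplied the most abundant members. Summed over its rows, the alpha subunit stood at 851, 708 and 402 CPM in the yellow, silver and matured library and the beta subunit at 454, 667 and 283 CPM. The alpha sum was thus highest in the yellow eel and the beta sum in the silver eel, and both sums were lowest in the matured eel. Single rows of both subunits departed from these orders, as given below. The alpha sum was 1.76-fold lower in the matured than the silver library and 2.12-fold lower than in the yellow library, and the beta sum was 2.36-fold lower and 1.60-fold lower. Each of these differences was smaller with library totals alone, and those of the alpha sum also with uniquely aligned reads alone.

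**Figure D3:**
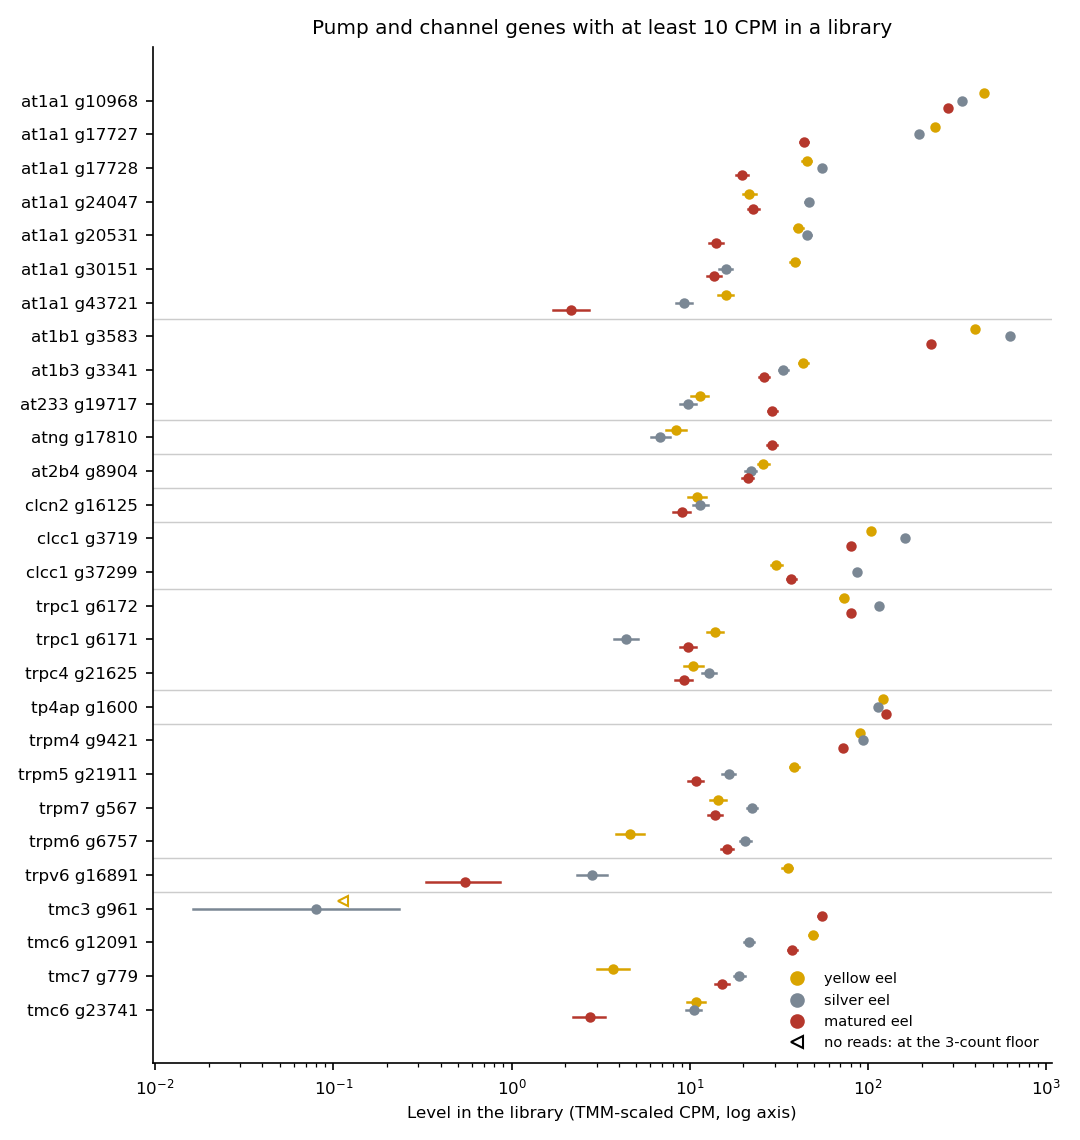
Level of each member with at least 10 CPM in a library (CPM, log axis), grouped by family; points are the yellow, silver and matured library, lines their 95% counting intervals and an open triangle a library with no reads. The row at1b1 g3583 and the at1a1 rows g10968 and g17727 reach farthest right, the other at1a1 rows lie lower, and trpv6 and tmc3 span the widest range.

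Nearly all alpha subunit reads fell on rows named at1a1, the alpha-1 subunit, which is the form found in most tissues. Its 8 rows summed to 848, 705 and 397 CPM, 1.78-fold lower (1.74 to 1.81) in the matured than the silver library and 2.14-fold lower (2.09 to 2.18) than in the yellow library. As log2 ratios these are -0.829 and -1.10. They were smaller in size with uniquely aligned reads alone, at -0.660 and -0.915, and with library totals alone, at -0.495 and -0.833. The printed intervals do not cover this dependence. The main row, g10968, with 3202 bases, had 449, 338 and 281 CPM, or 140, 106 and 87.6 CPM per kb. It was 1.33-fold lower (1.29 to 1.36) in the silver than the yellow library and 1.60-fold lower (1.56 to 1.64) in the matured than the yellow library. Between matured and silver it was 1.21-fold lower, a difference whose direction turned when the libraries were scaled by their totals alone. Thus the main alpha-1 row ran from highest in the yellow eel to lowest in the matured eel, with a step of uncertain sign at the end.

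The other at1a1 rows did not run in parallel. Row g17727, with 2882 bases, had 237, 194 and 43.9 CPM and was 4.42-fold lower (4.18 to 4.67) in the matured than the silver library and 5.39-fold lower (5.10 to 5.71) than in the yellow library. Its neighbour by identifier, g17728, had 45.4, 55.3 and 19.7 CPM and was 2.81-fold lower between matured and silver. Many of their reads aligned to more than 1 place: only 46.6% of the reads of g17727 and 48.8% of those of g17728 aligned uniquely, against at least 99.98% of those of g10968 in each library, so their levels depend on how the authors distributed such reads. Where the other alignments lie is not given by the counts. With unique reads alone the log2 ratio of g17727 was -2.06 between matured and silver and -2.19 between matured and yellow, against -2.12 and -2.40 with all reads. The difference between matured and silver was thus about as large without the reads of several alignments. The call between matured and silver ended with library totals alone, at a log2 ratio of -1.79, with RPKM and when the rows of one name were summed. The call between matured and yellow ended in the last of these.

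Rows g20531 and g24047 had their highest level in the silver eel, although for g20531 the order of silver and yellow turned once the length trend was removed. Row g20531 had 40.6, 45.6 and 14.0 CPM and was 3.25-fold lower (2.94 to 3.60) in the matured than the silver library. Row g24047, outside the rule for named genes and chosen after its values were seen, had 21.6, 46.4 and 22.7 CPM, 2.15-fold higher in the silver than the yellow library and 2.04-fold lower in the matured than the silver library. The 2 short rows were highest in the yellow eel: g30151, with 444 bases, had 38.8, 15.9 and 13.7 CPM, and g43721, with 219 bases, had 15.9, 9.31 and 2.17 CPM, 7.35-fold lower (5.74 to 9.53) in the matured than the yellow library. The call of g43721 ended with 5 CPM added, at a log2 ratio of -1.55, and when the rows of one name were summed. The eighth row had no reads. As a result g10968 held 52.9%, 48.0% and 70.7% of all at1a1 reads in the yellow, silver and matured library.

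**Figure D4:**
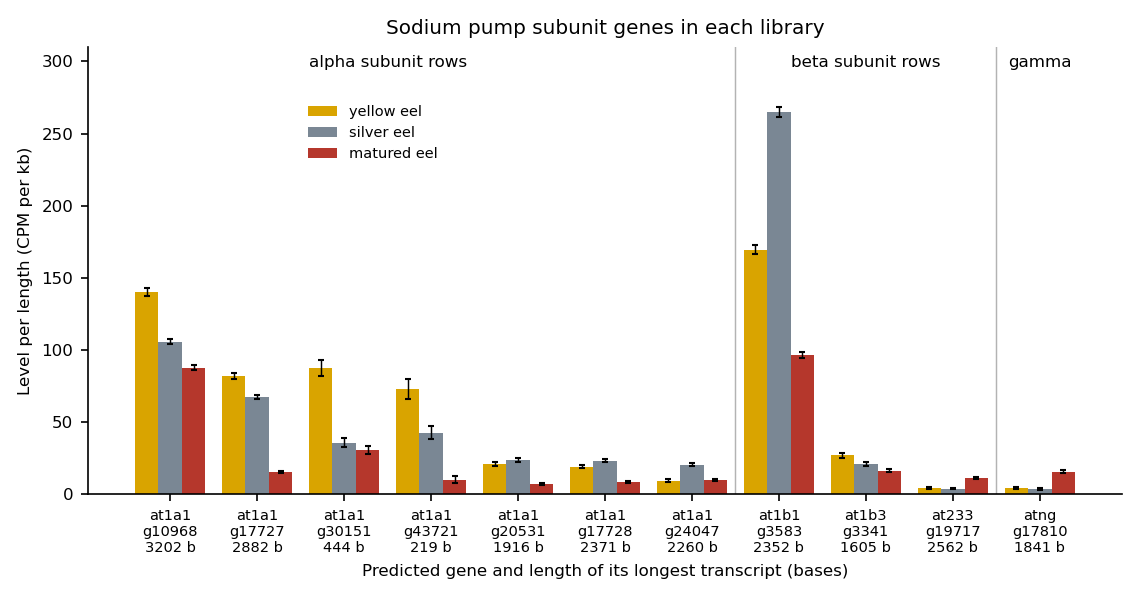
Level per length (CPM per kb) of the sodium pump rows with at least 10 CPM in a library; bars are the yellow, silver and matured library and error bars 95% counting intervals, with vertical lines between alpha, beta and gamma rows. The alpha row g10968 declines from 140 to 87.6 CPM per kb, and the beta row g3583 peaks at 265 in the silver library.

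Other alpha isoforms were scarce. Of the at1a3 rows, the alpha-3 form typical of neurons in mammals, g22785 had 0.451, 0.398 and 3.21 CPM and was 8.07-fold higher (4.68 to 14.9) in the matured than the silver library, while g13768 had 2.67, 2.55 and 1.44 CPM. Both lie under 10 CPM and were picked after their values were seen. The alpha-2 rows, at1a2, a form of muscle and glia in mammals, summed to 2, 4 and 0 reads. Nerve and glia markers also stayed low in these libraries, at 5.86, 6.58 and 8.18 CPM, and their part in the at1a3 values was not tested.

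Among the beta subunits at1b1, the usual partner of alpha-1, prevailed. Its single row g3583 had 399, 624 and 227 CPM, or 170, 265 and 96.4 CPM per kb, 1.56-fold higher (1.53 to 1.60) in the silver than the yellow library and 2.75-fold lower (2.68 to 2.82) in the matured than the silver library. Per length, at1b1 in the silver library was the highest level of any member in any library. The beta-3 row at1b3 g3341 had 43.3, 33.5 and 26.2 CPM and differed by less than 2-fold. The row at233 g19717, whose best match is a beta subunit described from eel, went the other way, with 11.4, 9.81 and 29.1 CPM: it was 2.97-fold higher (2.63 to 3.35) in the matured than the silver library and 2.56-fold higher (2.25 to 2.93) than in the yellow library. Per length, at1b1 thereby made up 84.3%, 91.3% and 77.0% of the beta subunit level, and at233 2.20%, 1.32% and 9.07%.

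The gamma subunit, an FXYD protein that modulates pump affinity in the kidney of mammals, was represented by 1 row, atng g17810. It had 8.38, 6.84 and 29.0 CPM, 4.25-fold higher (3.70 to 4.89) in the matured than the silver library and 3.46-fold higher (2.99 to 4.02) than in the yellow library. Its log2 ratio of 1.94 between matured and silver, shrunk by the added 1 CPM, lay just under the threshold, and it was called there with library totals alone, with RPKM, with 0.1 CPM added and after removal of the length trend. So atng and at233 were highest in the matured eel, where the sums of the at1a1 rows and of at1b1 were lowest. A further FXYD protein outside the set, described as phospholemman and without a name in the table (g26359), had 46.9, 104 and 35.4 CPM, an order it shares with at1b1. This row was not called in any comparison and is given outside the rule for named genes. The beta-1-interacting protein nkai1 had 3.35, 5.36 and 6.94 CPM, and the other 3 rows of that family stayed under 1 CPM. The 2 rows named for the gastric proton pump alpha subunit had no reads, and its beta subunit, atp4b, had 1, 5 and 4 reads.

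The summed counts of the plasma membrane calcium pumps differed by at most 1.29-fold between the libraries. The family summed to 45.6, 35.5 and 38.0 CPM over 21 rows, of which 14 are shorter than 500 bases. Per length the sums lay farther apart, at 69.0, 43.0 and 56.1 CPM per kb in the yellow, silver and matured library. Each fragment of a gene would add its level per length again, so these sums also depend on how the rows are split. Its only row over 10 CPM, at2b4 g8904, with 3527 bases, had 25.9, 21.9 and 21.1 CPM and was 1.18-fold lower (1.07 to 1.31) in the silver than the yellow library and 1.04-fold lower (0.939 to 1.15) in the matured than the silver library. The latter interval includes no difference, and its direction turned with library totals alone. Summed by name, at2b1 had 5.75, 4.93 and 3.96 CPM, at2b2 5.90, 3.58 and 5.32 CPM, and at2b3 4.96, 3.98 and 4.88 CPM. So at2b4 was the leading form by count in each library. Per length its summed rows exceeded those of at2b2 in the yellow library alone, at 22.9 against 19.7 CPM per kb. In the silver and matured libraries the at2b2 sum was higher, at 13.0 against 11.5 and 20.1 against 19.4 CPM per kb. The 6 rows named at2b2 have only 119 to 481 bases and may be fragments, so these sums do not rank the forms. No row of the family was called in any comparison, but only 1 of the 21 had the 10 CPM needed for a call. The intracellular calcium pumps of the endoplasmic reticulum, at2a, carry other description words and were looked up in addition. They comprised 14 rows, 3 of them over 10 CPM, and none was called. With 1.43% to 4.61% of all genes called in a direction, 3 rows are too few for a comparison.

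Chloride channels were led by the rows named clcc1, a channel protein of the endoplasmic reticulum membrane that is unrelated to the CLC family by sequence. Row g3719, with 2571 bases, had 104, 161 and 80.3 CPM, 1.55-fold higher (1.48 to 1.62) in the silver than the yellow library and 2.01-fold lower (1.92 to 2.10) in the matured than the silver library. Row g37299, with 754 bases, had 30.5, 86.3 and 37.2 CPM, 2.83-fold higher (2.62 to 3.06) and then 2.32-fold lower (2.18 to 2.48). Both rows were thus highest in the silver eel. Between matured and yellow they went opposite ways, with log2 ratios of -0.371 for g3719 and 0.276 for g37299. Neither changed sign in 7 alternatives, while the sign of their summed difference turned with library totals alone. The CLC channel clcn2, a channel of many tissues that opens on hyperpolarization, was steady at 11.01, 11.5 and 9.02 CPM in row g16125. The muscle form clcn1 had 0, 17 and 3 reads. The chloride and proton exchangers of the same family, clcn3 to clcn7, looked up in addition, comprised 14 rows, 8 of them over 10 CPM. None was called, but 8 rows are too few to set beside the 1.43% to 4.61% of all genes called in a direction.

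TRP channels, 56 rows without the TRPC4-associated protein, summed to 301, 314 and 238 CPM. Single rows within this sum differed far more. The widest range among them belonged to trpv6 g16891, a calcium-selective channel that takes up calcium in epithelia of mammals and in fish gill. It had 940, 107 and 19 reads in the yellow, silver and matured library, or 35.3, 2.84 and 0.549 CPM. The yellow library was far above the others: trpv6 was 12.5-fold lower (10.2 to 15.4) in the silver library and 64.4-fold lower (41.0 to 107) in the matured library, and 5.17-fold lower (3.15 to 8.92) in the matured than the silver library. All its reads aligned uniquely. The name rests on a similarity of 0.5755 (as a fraction) to the best match. In the authors' deposited table, the level of trpv6 in the yellow eel is 65.6 times that in the matured eel, with a DESeq adjusted p of 0.00889, where 0.130% of 38539 genes with a p were lower at an adjusted p under 0.1. Lacking replicates, the authors took the variance for that adjusted p across the libraries, so no spread between animals lies behind it. The summed epithelial markers were 834, 1091 and 1045 CPM, not highest in the yellow eel. Of that sum cadh1 held 469, 827 and 305 CPM and k1c18 199, 84.5 and 338 CPM. Of the list epcam alone, an adhesion molecule of epithelial cells, was highest in the yellow eel, with 14.7, 4.77 and 8.21 CPM. The part of epithelial cells in the trpv6 values was not tested.

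The other TRPV rows were low. The heat and capsaicin receptor trpv1 g17762 had 5, 23 and 132 reads, or 0.188, 0.610 and 3.81 CPM. It stood 20.3-fold higher (8.48 to 63.5) in the matured than the yellow library, under the 10 CPM minimum. This row lies outside the rule for named genes and was picked after its values were seen. The 5 rows named trpv4, an osmosensitive and mechanosensitive channel, are all shorter than 500 bases and had 0, 16 and 11 reads in total. Only trpv6 of this family therefore reached a level at which a call was possible.

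Of the TRPM channels, the magnesium-permeable channel kinases trpm6 and trpm7 were both higher in the silver than the yellow library. Row trpm6 g6757 had 4.62, 20.5 and 16.2 CPM and was 4.43-fold higher (3.66 to 5.40) in the silver and 3.50-fold higher (2.88 to 4.29) in the matured than the yellow library, with a log2 ratio of 1.93 between silver and yellow, just under the threshold. The ubiquitous trpm7 had 14.4, 22.3 and 13.8 CPM in row g567 and 6.69, 7.29 and 5.63 CPM in the adjacent row g566, without a 2-fold difference. Of the calcium-activated channels permeable to monovalent cations, trpm4 g9421 was the most abundant TRPM row at 90.4, 93.8 and 72.7 CPM and differed by at most 1.29-fold. Its relative trpm5 g21911, known from taste cells, had 38.6, 16.5 and 10.8 CPM, 2.34-fold lower (2.12 to 2.59) in the silver and 3.58-fold lower (3.18 to 4.05) in the matured than the yellow library. Thus trpm5 followed the order of trpv6 with a smaller range. The 7 rows named trpm3 summed to 3.12, 2.76 and 0.896 CPM, and the 2 rows named trpm2 had no reads. The channel trpm1, known from retinal bipolar cells of mammals, had 2.07, 1.27 and 0.722 CPM. Under 10 CPM and outside the rule for named genes, it too was highest in the yellow eel, 2.86-fold (1.75 to 4.79) above the matured one.

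The TRPC family, non-selective cation channels downstream of phospholipase C, was carried by trpc1. Row g6172 had 73.0, 115 and 80.05 CPM, 1.58-fold higher (1.495 to 1.67) in the silver than the yellow library. The adjacent row of the same name, g6171, had 13.9, 4.401 and 9.80 CPM, 3.15-fold lower (2.62 to 3.81) in the silver than the yellow library, so the neighbouring trpc1 rows were highest and lowest in the same eel. The channel trpc4 g21625 was steady at 10.5, 12.9 and 9.22 CPM. The diacylglycerol-gated trpc6 g5328, chosen after its values were seen, had 0.413, 2.12 and 6.39 CPM and was 15.4-fold higher (8.47 to 31.4) in the matured than the yellow library, under the 10 CPM minimum. The protein that binds TRPC4, tp4ap g1600, had 122, 114 and 125 CPM, the flattest of the abundant members with at most a 1.10-fold difference. Other TRPC names stayed low. The 6 rows of trpc2, a channel of pheromone sensing in rodents, summed to 1.84, 3.05 and 2.83 CPM, and the 4 rows of trpc7 to 1.92, 2.57 and 1.56 CPM. The rows named trpc5 summed to 17, 22 and 9 reads, counts too small to order the libraries. The irritant receptor trpa1 had 2, 19 and 11 reads.

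**Figure D5:**
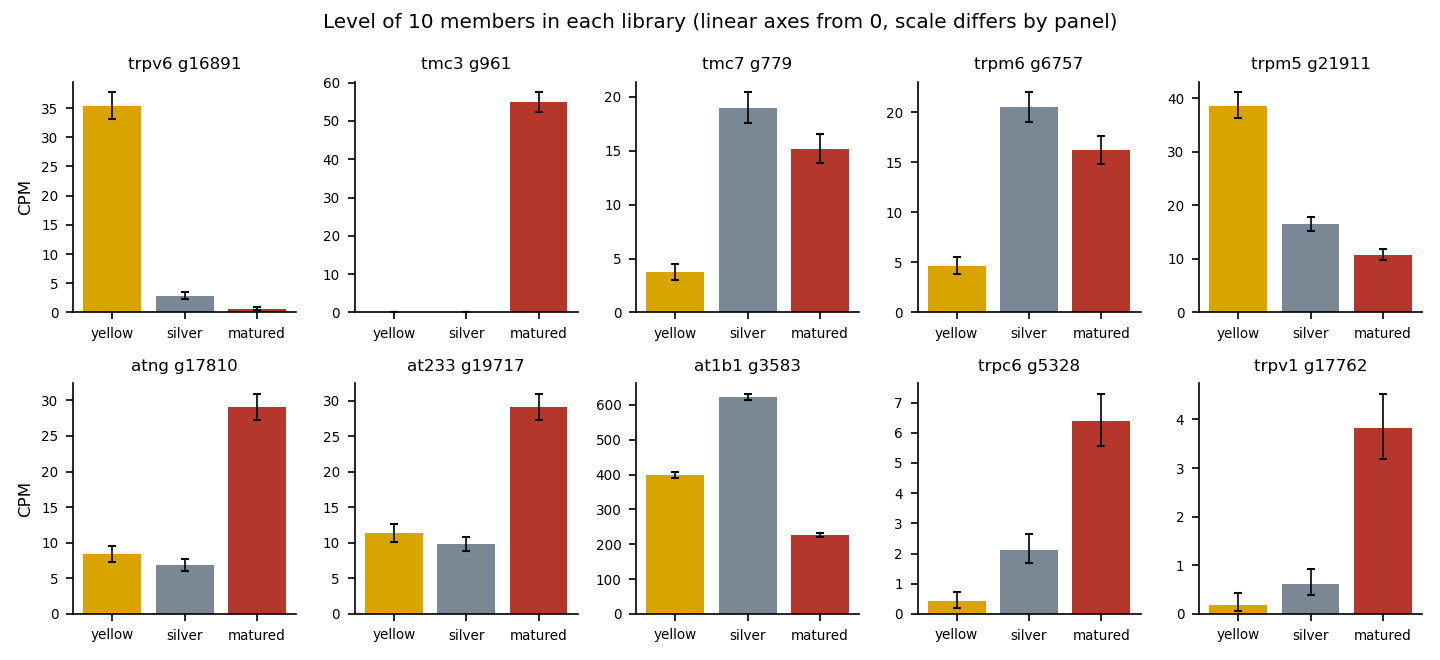
Level (CPM, linear axes from 0 with a scale of their own) of 10 members in the yellow, silver and matured library, with 95% counting intervals; the panels were picked to show the different orders. The gene trpv6 is highest in the yellow eel, tmc7 and trpm6 are low in the yellow eel alone, at1b1 peaks in the silver eel, and tmc3, atng, at233, trpc6 and trpv1 are highest in the matured eel.

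TMC proteins are a family of membrane proteins whose members TMC1 and TMC2 belong to the mechanotransduction channel of hair cells. No row of the set carries those names. The row tmc3 g961 had 0, 3 and 1900 reads in the yellow, silver and matured library, the last of which is 54.9 CPM. It was 690-fold higher (236 to 3350) in the matured than the silver library and, set against a floor of 3 reads in the yellow library, at least 487-fold higher than there. All its reads aligned uniquely, and the name rests on a similarity of 0.5305 to the best match. In the authors' deposited table, tmc3 is 666-fold higher in the matured than in the silver eel with a DESeq adjusted p of 7.2e-06, where 0.113% of 38926 genes were higher at an adjusted p under 0.1, and against the yellow eel its adjusted p there is 1.56e-05 beside 0.202% of genes. The variance behind these adjusted p values was likewise taken across the libraries, without replicate eels, so they are no test of a stage. In the authors' deposited table no member was lower in the matured than the silver eel at an adjusted p under 0.1, beside 0.126% of genes. In the authors' deposited table no other member passed an adjusted p of 0.1 except trpv6 between matured and yellow, and none did between silver and yellow, where 0.103% of 38724 genes were higher and 0.0671% lower.

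The other rows named tmc3 did not share that level. Row g2382 had 1, 2 and 52 reads, 28.3-fold higher (7.46 to 240) in the matured than the silver library, and g13299 had 7, 7 and 2 reads. The summed immune markers and the summed granulosa and theca markers were also highest in the matured library, at 139 and 557 CPM. Of the latter sum cp17a alone held 423 CPM, and cp19a was highest in the silver library. Of the smooth muscle markers, acta, an actin, had 0.827, 2.39 and 79.1 CPM, and tagl, cald1, cnn1, desm and myh11 were also highest in the matured library. The marker smtn was highest in the silver library. The whole smooth muscle list was highest in the yellow eel through mylk, at 946, 695 and 392 CPM. The part of these cell types in the tmc3, atng, at233, trpc6 and trpv1 values was not tested.

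The row tmc7 g779 had 99, 715 and 525 reads, or 3.72, 19.0 and 15.2 CPM, 5.09-fold higher (4.12 to 6.35) in the silver and 4.08-fold higher (3.28 to 5.11) in the matured than the yellow library. Its profile is close to that of trpm6: low in the yellow eel and near each other in the silver and matured eels. The call of tmc7 between silver and yellow ended with the authors' RPKM, with 5 CPM added and after removal of the length trend. The adjacent row g778, named tmc5, had 2, 16 and 1 reads. Rows named tmc6, known in mammals as EVER1, a zinc-handling protein of the endoplasmic reticulum, differed from each other: g12091 had 49.1, 21.5 and 37.6 CPM, lowest in the silver eel by 2.29-fold (2.09 to 2.5) against the yellow eel, and g23741 had 10.9, 10.5 and 2.75 CPM, 3.82-fold lower (3.05 to 4.84) in the matured than the silver library. A row without a name, described as a TMC8-like protein, had 0, 0 and 8 reads.

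Related genes outside the set were read from 341 rows found by description, covering exchangers, calcium release and entry channels, other chloride channels, cotransporters, calcium-binding proteins and other P-type pumps. In each comparison 65 of them had 10 CPM in a library. Between silver and yellow 2 were called higher (3.08%) and 0 lower, between matured and silver 0 higher and 2 lower (3.08%), and between matured and yellow 2 in each direction (3.08%), counts too small to set beside the shares of all genes given above as different. The calcium entry channel crcm1 (Orai1, the pore of store-operated calcium entry) in row g6801 had 1.54, 24.3 and 3.29 CPM, 15.8-fold higher in the silver than the yellow library and 7.37-fold lower in the matured than the silver library, while its calcium sensor stim1 was not called. The release channel ryr2 g5928 was 8.85-fold lower in the matured than the silver library. The chloride intracellular channel clic2 was 10.6-fold higher in the silver and 6.53-fold higher in the matured than the yellow library in row g15619, and 13.7-fold higher in the matured than the yellow library in row g6372. The cotransporter s12a9 g33179 was 4.55-fold lower and the calmodulin-dependent kinase kcc1g g10665 16.5-fold lower in the matured than the yellow library. Of the 65 rows of other P-type pumps, 15 or 16 had 10 CPM in a comparison and none was called, too few for a comparison with the at1a1 rows.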

How the data were processed

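Per the labels' protocols, 1 Illumina mRNA library was made from total RNA of the pooled gonad parts of each eel. The authors predicted the genes, took names from similar proteins and counted aligned reads in CLC bio software, per the file headers. Among the tools in the submitters' processing notes, which give neither role nor order, are DESeq, HTSeq, SAMtools 0.1.18, TopHat2 2.0.5 and CASAVA. A genome build was not given in the sources used here. Per the file headers, the counts deposited are corrected totals, in which reads with several alignments are distributed among genes; 97.9% to 98.2% of reads were unique. The RPKM values, the fold as a ratio, its log2 value, and the p-value and adjusted p-value from DESeq were deposited by the authors; lacking replicates, the authors took the variance across the libraries. The similarity to the best match was deposited by the authors as a fraction. A line of totals and 1 blank line, neither naming a gene, were left out.

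Counts of all 45974 genes were scaled with TMM (edgeR 4.0.16, R 4.3.3), and ratios, exact conditional binomial (Clopper-Pearson) 95% intervals and a floor of 3 counts per library (0.113, 0.0795 and 0.0867 CPM) were computed with Python 3.11.15, numpy 2.4.6, pandas 2.3.3 and scipy 1.17.1. Figures were drawn with matplotlib 3.10.9. Intervals and floors cover counting error alone, since PCR copies are not separate molecules. No p-value was computed. The steps were tested on simulated data.

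The members and lists were chosen with earlier results of these data known. Named were members called in any comparison, trpv6 and tmc3, and in each family up to 6 members with at least 10 CPM in a library, by level per length (29 in all). Other members with values in the text, among them trpv1, trpc6, trpm1, at1a1 g24047 and the at1a3 rows, lie outside this rule. Of related genes, those called were named, and outside that rule stim1 and the phospholemman row g26359, which were not called. Alternatives were DESeq2 1.42.0 size factors, library totals, unique reads, RPKM, minimums of 1 CPM and none, 0.1 or 5 CPM added, a 2-fold threshold and removal of the trend over transcript length; rows of one name summed, endoplasmic reticulum calcium pumps and CLC exchangers were added after the data were seen.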

Additional observations from a re-analysis of the deposited data

How the results depend on the processing

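No paired analysis was possible because each stage has 1 eel, and no library could be left out. Counts of members called were the same, within 1.5 times, in 45 of 66 recomputations and moved in 21. Higher in silver than yellow, 1 member was called, but 0 with RPKM, with 5 CPM added or with the length trend removed, 2 with 0.1 CPM added (trpm6 joined) and 4 at 2-fold; lower, 1 against 5 at 2-fold. Higher in matured than silver, 1 member was called, but 2 (atng joined) with library totals, RPKM, 0.1 CPM added or the length trend removed, and 3 at 2-fold; lower, 1 against 0 with library totals, RPKM or rows of one name summed and 6 at 2-fold. Higher in matured than yellow, 1 member was called, but 2 with library totals (tmc7 joined), 3 with a minimum of 1 CPM or none (trpv1 and trpc6 joined) and 5 at 2-fold; lower, 3 against 8 at 2-fold and 1, trpv6, with rows of one name summed. The log2 ratio of at1a1 g17727 between matured and silver was -1.79 with library totals and -1.75 with RPKM. Of the recomputed log2 ratios of single members and medians over the members, 473 stayed within their interval and 157 moved. For a single member the interval set the lower counting limit of a library against the upper limit of the other, with 1 CPM added. Combining the limits of both libraries makes a wide interval, which is not the one printed with the folds. For a median the interval came from the ranked member values.

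The balance of directions moved with the processing, by amounts that differed between the comparisons. Of all genes called between matured and silver 32.7% were higher, against 57.6% with library totals and 57.7% with RPKM. Between matured and yellow the share was 56.7%, against 74.3% with library totals and 61.5% with RPKM. Between silver and yellow it was 72.1%, against 67.8% with library totals and 50.8% with RPKM. The causes of these shifts were not tested. Under library totals the summed difference changed sign for clcc1 and the plasma membrane calcium pumps between matured and yellow, for the TRPM rows between silver and yellow and for the gastric proton pump between matured and silver. Depth limits members with few reads: with no reads, a level up to the floor of the library is not detectable.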
